A study of Mus musculus with 6 samples.

Results

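The genes described here encode the main apolipoproteins, the transfer protein that lipidates them and the plasma enzymes that remodel the finished particles. They were the 10 rows of the liver count data named Apoa1, Apoa2, Apoa4, Apoa5, Apob, Apoc3, Apoe, Mttp, Lcat and Lipc, out of 23284 genes listed, and were chosen by name. All 10 passed the filter on low counts. RNA was measured in whole livers of C57BL/6 mice, 8 weeks of age, that received either Vehicle or FGF19 at 1 mg/kg after an overnight fast and went without food for the remaining 6 h. Each group had 3 libraries, both groups shared the strain, age and fast, and no genetic alteration is named for either. The libraries were whole liver, so a lower level could come from fewer cells of a type or from less RNA per cell, and the counts cannot tell these apart. The comparison asks how the transcripts of high-density lipoprotein (HDL) and of very-low-density lipoprotein (VLDL) stood after treatment with FGF19, the hormone that signals the fed state from ileum to liver.

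Liver secretes lipid in both kinds of particle. VLDL is built around 1 molecule of apolipoprotein B, which the microsomal triglyceride transfer protein (Mttp) loads with lipid in the endoplasmic reticulum, and the finished particle carries triglyceride to muscle and adipose tissue. HDL is built around apolipoproteins A-I and A-II and carries cholesterol back to the liver, with lecithin-cholesterol acyltransferase (Lcat) esterifying its cholesterol and hepatic lipase (Lipc) hydrolysing its lipids. Apolipoproteins C-III and A-V are exchangeable proteins that slow and speed the clearance of triglyceride, and apolipoprotein E is the ligand by which remnants are taken up. Apoa1, Apoa2, Lcat and Lipc were grouped as HDL genes and Apob, Mttp, Apoc3, Apoa4, Apoa5 and Apoe as VLDL genes, by their main textbook role, although Apoe, Apoa4 and Apoc3 are also carried on HDL.

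The 250 bases before the gene start are shown for 3 genes, Apoa5 because it had the lowest adjusted p of the 10, Apob because it alone had a fold change above 0, and Lipc because its fold change was the lowest among the HDL genes. The sequences are from RefSeq (build GRCm38.p6, which held windows for 9 of the 10 genes) and are identical to mm9 at chr9:46076441-46076690 on the plus strand for Apoa5, chr12:7984233-7984482 on the plus strand for Apob and chr9:70782616-70782865 on the minus strand for Lipc. Each is written 5′ to 3′ on the strand of the gene. Capitals mark the TATA box TATAAA in Apoa5 and Apob, and in Lipc the nuclear receptor half-site AGGTCA, its opposite-strand form TGACCT, and ATTGG, which is the CCAAT box read on the opposite strand.
Apoa5: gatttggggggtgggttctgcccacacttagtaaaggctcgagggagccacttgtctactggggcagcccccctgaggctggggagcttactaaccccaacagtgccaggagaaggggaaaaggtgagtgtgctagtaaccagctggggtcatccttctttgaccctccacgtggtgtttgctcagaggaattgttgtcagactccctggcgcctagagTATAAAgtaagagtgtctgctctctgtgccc
Apob: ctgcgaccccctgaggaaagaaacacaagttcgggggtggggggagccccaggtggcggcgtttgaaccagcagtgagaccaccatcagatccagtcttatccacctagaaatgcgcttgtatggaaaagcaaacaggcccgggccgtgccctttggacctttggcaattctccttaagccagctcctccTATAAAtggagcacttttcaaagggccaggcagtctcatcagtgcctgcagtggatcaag
Lipc: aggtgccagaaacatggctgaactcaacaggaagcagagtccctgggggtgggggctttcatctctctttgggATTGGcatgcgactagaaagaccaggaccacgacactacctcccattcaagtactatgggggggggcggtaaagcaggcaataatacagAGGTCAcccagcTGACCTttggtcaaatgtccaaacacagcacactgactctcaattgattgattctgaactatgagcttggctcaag
TATAAA began 31 bases before the start of Apoa5 and 60 bases before that of Apob. In Lipc, AGGTCA began 88 bases before the start on the strand of the gene and TGACCT began 76 bases before it. On either strand, TATAAA occurred in 12.4%, AGGTCA in 14.0% and CCAAT in 33.8% of 32851 windows of the same length, so these matches are a description of the sequence and not evidence of a bound site.

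Total counts lay between 18994654 and 22920056 a library, and Alb was the most abundant transcript in each. Levels are given as CPM, the counts of a gene as a share of the library total in the usual fixed unit, after TMM scaling, whose factors ran from 0.964 to 1.03. The hepatocyte markers summed to between 85206 and 87774 CPM in the Vehicle libraries and between 85943 and 92421 CPM in the FGF19 libraries, with none at 0. Of these 6 markers Fgb, an acute-phase protein, was called higher and the other 5 were not called. The 5, summed after the values were seen, came to 81607, 81232 and 83165 CPM in the Vehicle libraries and 78376, 75506 and 80962 CPM in the FGF19 libraries. Most of this sum was Alb, whose groups overlapped, as did those of Ttr, Serpina1a and Tat (log2 fold change 0.39), and Cps1 alone of the 5 was lower without overlap (log2 fold change -0.35). Their part in the levels of the 10 genes was not tested. Cyp7a1, the rate-limiting enzyme of bile acid synthesis and a standard response to this hormone, stood at 310, 272 and 222 CPM in the Vehicle libraries and at 9.35, 12.4 and 12.4 CPM in the FGF19 libraries. The 10 lipoprotein genes together took 5.40%, 5.76% and 5.77% of all counts in the Vehicle libraries and 4.96%, 4.76% and 5.45% in the FGF19 libraries, and these shares overlapped.

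Expressed as CPM per kilobase of exon, so that genes of different length can be compared, the levels of the 10 genes in the Vehicle libraries spanned from 19005 ± 106 for Apoe to 69.6 ± 2.73 for Lipc (SD, n = 3). Apoa1 came next after Apoe at 15254 ± 2221 (SD, n = 3), followed by Apoa2 at 11118 ± 363 (SD, n = 3) and Apoc3 at 2412 ± 183 (SD, n = 3). Apoa4, Apoa5, Apob, Lcat and Mttp followed in that order. The spread over libraries did not separate Apoa4 from Apoa5, nor Apob from Lcat. The order of the means was the same in the FGF19 libraries. The transcripts of the HDL scaffold proteins were thus present at a higher length-corrected level than Apob, at 429 ± 12.6 (SD, n = 3), and Mttp, at 83.2 ± 3.09 (SD, n = 3).

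Among the HDL genes, Apoa2 was the only gene whose groups did not overlap. Apoa1, the scaffold protein of HDL and the activator of Lcat, stood at 12609, 16870 and 15598 CPM in the Vehicle libraries and at 13791, 11516 and 17519 CPM in the FGF19 libraries. The groups overlapped, with both the highest and the lowest of the 6 values in the FGF19 group. Its log2 fold change, FGF19 over Vehicle, was -0.074 ± 0.17 (SE, n = 3 in each group) with a 95% interval from -0.45 to 0.31, and edgeR's quasi-likelihood test gave an adjusted p of 0.841. The sign turned positive when Vehicle replicate 2 (0.017) or FGF19 replicate 2 (0.068) was left out, so no direction can be given for this gene.

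Apoa2, the second structural protein of HDL, stood at 5986, 5784 and 5608 CPM in the Vehicle libraries and at 4770, 4689 and 5104 CPM in the FGF19 libraries. All 3 FGF19 libraries lay below all 3 Vehicle libraries. The log2 fold change was -0.25 ± 0.09 (SE, n = 3 in each group), which is 83.8% of the Vehicle mean, with a 95% interval from -0.47 to -0.04 and an edgeR adjusted p of 0.140 that did not pass 0.05. Without FGF19 replicate 3, the edgeR adjusted p was 0.0458.

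Both HDL enzymes had lower length-corrected levels than Apoa1 and Apoa2. Lcat stood at 535, 571 and 523 CPM in the Vehicle libraries and at 504, 490 and 594 CPM in the FGF19 libraries. The FGF19 values lay on both sides of the Vehicle values, with a log2 fold change of -0.037 ± 0.10 (SE, n = 3 in each group), a 95% interval from -0.26 to 0.19 and an edgeR adjusted p of 0.866. Without FGF19 replicate 2 its sign turned, to 0.024. Lipc stood at 128, 139 and 133 CPM in the Vehicle libraries and at 106, 129 and 96.9 CPM in the FGF19 libraries. Only FGF19 replicate 2 reached the range of the Vehicle libraries. The log2 fold change of Lipc was -0.27 ± 0.11 (SE, n = 3 in each group) with a 95% interval from -0.52 to -0.02 and an edgeR adjusted p of 0.184. Without FGF19 replicate 3 it was -0.18.

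Among the VLDL genes, the transcripts of both proteins that build the particle overlapped between the groups. Apob stood at 5987, 5774 and 6121 CPM in the Vehicle libraries and at 6996, 7063 and 5438 CPM in the FGF19 libraries. FGF19 replicates 1 and 2 were the highest of the 6 and FGF19 replicate 3 the lowest, so the groups overlapped at both ends. The log2 fold change was 0.12 ± 0.12 (SE, n = 3 in each group) with a 95% interval from -0.15 to 0.40 and an edgeR adjusted p of 0.595, and it was 0.24 when FGF19 replicate 3 was left out, 0.069 when replicate 1 of that group was, and 0.068 when replicate 2 was. Mttp stood at 368, 353 and 380 CPM in the Vehicle libraries and at 348, 356 and 304 CPM in the FGF19 libraries. The groups overlapped through FGF19 replicate 2, and the log2 fold change of -0.13 ± 0.09 (SE, n = 3 in each group) had a 95% interval from -0.33 to 0.08 and an edgeR adjusted p of 0.456. Without FGF19 replicate 3 it was -0.057.

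**Figure D1:**
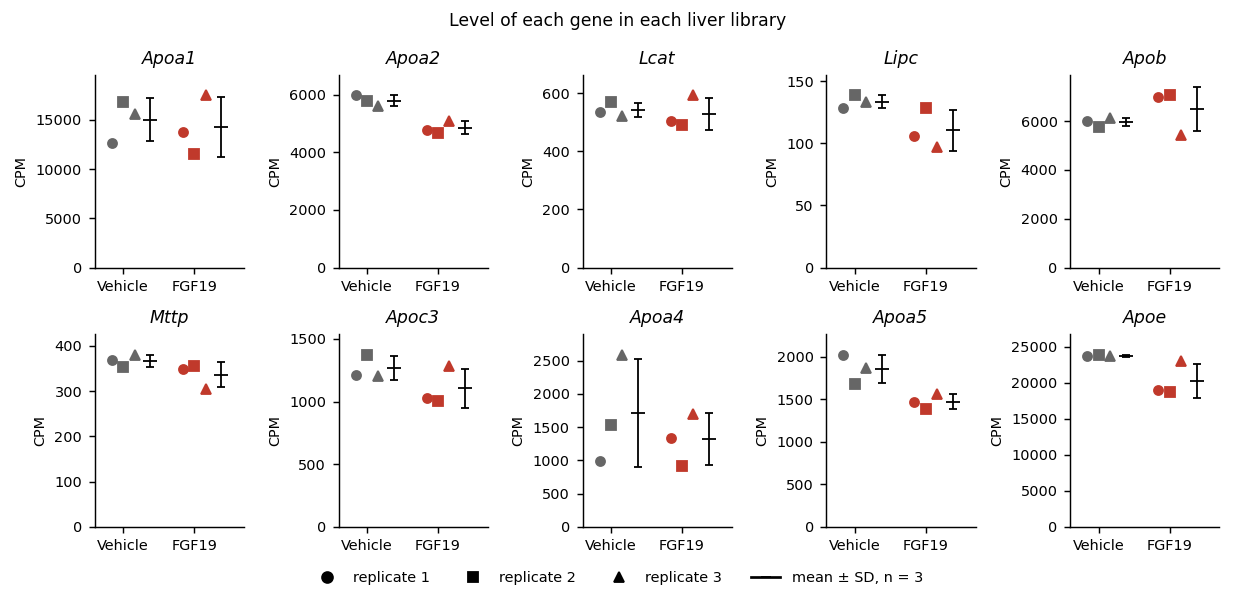
Level of each of the 10 genes (vertical axis, CPM after TMM scaling, from 0) in the 3 Vehicle libraries (grey) and 3 FGF19 libraries (red), with the replicate number given by the shape of the point and the mean ± SD drawn beside each group. Apoa2, Apoa5 and Apoe have every FGF19 library below every Vehicle library, and the other 7 genes overlap.

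Apoa5, which promotes lipolysis of triglyceride by lipoprotein lipase, had the lowest adjusted p of the 10 genes. It stood at 2018, 1683 and 1871 CPM in the Vehicle libraries and at 1471, 1381 and 1563 CPM in the FGF19 libraries. The groups did not overlap. The FGF19 mean was 79.2% of the Vehicle mean, and the log2 fold change was -0.34 ± 0.10 (SE, n = 3 in each group) with a 95% interval from -0.56 to -0.11. The quasi-likelihood test of edgeR gave an unadjusted p of 0.00855 and an adjusted p of 0.0811. DESeq2 gave an adjusted p of 0.0271, and edgeR gave 0.0350 without FGF19 replicate 3. The call on Apoa5 therefore differed between tools, at the same direction.

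Apoe was the most even gene of the 10 in the Vehicle group, with 23723, 23926 and 23677 CPM and a coefficient of variation of 0.556%. It stood at 19032, 18786 and 22992 CPM in the FGF19 libraries. Every FGF19 value lay below every Vehicle value, but FGF19 replicates 1 and 2 lay together and replicate 3 lay close to the Vehicle libraries. The log2 fold change was -0.23 ± 0.12 (SE, n = 3 in each group) with a 95% interval from -0.49 to 0.03 and an edgeR adjusted p of 0.279, which was 0.0371 without FGF19 replicate 3. Macrophages also make apolipoprotein E. The 6 Kupffer cell markers, of which none was at 0, summed to between 179 and 227 CPM in the Vehicle libraries and between 163 and 195 CPM in the FGF19 libraries, and 1 of the 6 was called (Cd68, higher, at a log2 fold change of 0.66). The uncalled markers lay on both sides of 0, with Vsig4 at -0.54 (lower without overlap), Clec4f at -0.29, Cd5l at -0.22, Csf1r at 0.035 and Adgre1 at 0.36 (higher without overlap). Their part in the level of Apoe was not tested.

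Apoc3, an inhibitor of triglyceride clearance, stood at 1212, 1375 and 1206 CPM in the Vehicle libraries and at 1031, 1002 and 1286 CPM in the FGF19 libraries. FGF19 replicate 3 lay within the Vehicle range and the other 2 below it. The log2 fold change was -0.19 ± 0.12 (SE, n = 3 in each group) with a 95% interval from -0.46 to 0.07 and an edgeR adjusted p of 0.375. It was -0.31 without FGF19 replicate 3 (edgeR adjusted p = 0.0463) and -0.12 without FGF19 replicate 2 (edgeR adjusted p = 0.728).

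Apoa4, a lipid-binding apolipoprotein that liver makes in response to lipid load, was the most variable gene of the 10. It stood at 994, 1539 and 2593 CPM in the Vehicle libraries, a coefficient of variation of 47.6%, and at 1331, 919 and 1702 CPM in the FGF19 libraries. The Vehicle values alone spanned nearly the whole range of the gene. Its log2 fold change of -0.38 ± 0.32 (SE, n = 3 in each group) was the largest in size among the 10 and also the least certain, with a 95% interval from -1.09 to 0.34 and an edgeR adjusted p of 0.540. It was 0.057 without Vehicle replicate 3, -0.16 without FGF19 replicate 2, -0.60 without FGF19 replicate 3 and -0.65 without Vehicle replicate 1. Enterocytes are a major source of Apoa4, and of their 4 markers Sis was at 0 in all 6 libraries, Lct had a count in 1 library only, Vil1 lay at 0.238, 0.106 and 0.0993 CPM in the Vehicle libraries and 0.419, 0.138 and 0.407 CPM in the FGF19 libraries, and Fabp2, which hepatocytes may also express, lay between 74.9 and 99.4 CPM.

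**Figure D2:**
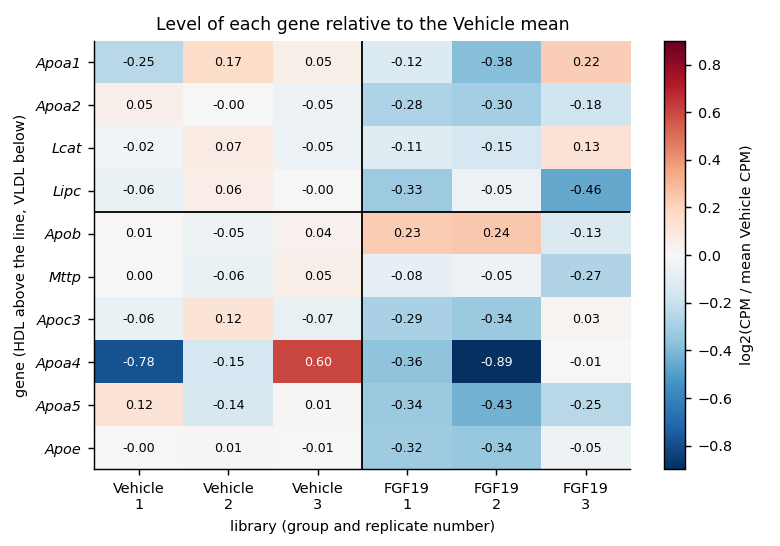
Each gene (rows, HDL genes above the line and VLDL genes below it) in each library (columns, Vehicle and FGF19 replicates 1 to 3) as the log2 ratio of its CPM to the mean CPM of the Vehicle group, printed in each cell and shown by colour. The FGF19 columns are mostly below 0, Apob is at 0.23 and 0.24 in FGF19 replicates 1 and 2, and the Apoa4 row ranges from -0.89 to 0.60.

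Of the 10 genes, 0 were called higher and 0 were called lower by edgeR's quasi-likelihood test with the adjusted threshold of 0.05, against 4.56% of the 12559 genes tested called higher and 2.84% called lower. At an unadjusted p under 0.01, the threshold named in the study's methods, 1 of 10 was lower (Apoa5) and none was higher, against 4.98% and 6.2% of all genes. At an unadjusted p under 0.05, 3 were lower (Apoa2, Apoa5 and Lipc) and none was higher, against 11.3% and 11.6% of all genes. DESeq2 called 1 of 10 (Apoa5, lower) at its own adjusted threshold of 0.05, against 4.13% of all genes called lower and 5.11% called higher. The other tools called none of the 10, while over all genes limma-voom called 2.85% lower and 4.33% higher, edgeR's likelihood ratio test 4.61% and 6.21%, and edgeR's exact test 4.51% and 6.12%. The FGF19 and Vehicle libraries did not overlap for 3 of the 10 genes, all lower (Apoa2, Apoa5 and Apoe), where 13.8% of all genes tested were lower and 14.5% were higher without overlap. The log2 fold changes were below 0 for 9 of 10 genes with a median of -0.21, whereas 50.1% of all genes tested were below 0 and their median was -0.000763. The 10 genes share the same 6 libraries, so these counts describe them and are not independent of each other. The FGF19 means ran from 77.1% of the Vehicle mean (Apoa4) to 109% (Apob), and the highest upper end of the 10 intervals was 1.32-fold (Apob).

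The HDL genes and the VLDL genes are compared here by their medians, without a test. The 4 HDL genes had a median log2 fold change of -0.16, with a range from -0.27 to -0.037, and the 6 VLDL genes had a median of -0.21, with a range from -0.38 to 0.12. The medians differed by 0.047. Without FGF19 replicate 2 the median of the HDL genes was -0.099, and without FGF19 replicate 3 that of the VLDL genes was -0.32. With Apoe, Apoa4 and Apoc3 counted among the HDL genes instead, an assignment tried after the values were seen, the difference was -0.10. With the original assignment it was -0.00325 when Vehicle replicate 3 was left out, 0.019 without Vehicle replicate 1, 0.024 without FGF19 replicate 1, 0.070 without Vehicle replicate 2 and 0.107 without FGF19 replicate 3, so its direction and size rest on the placement of these 3 genes and on single libraries. By library, the median of the HDL genes relative to the Vehicle mean was -0.20, -0.23 and -0.027 on the log2 scale in FGF19 replicates 1, 2 and 3, and that of the VLDL genes was -0.31, -0.34 and -0.090. Both groups of genes were thus nearest to the Vehicle level in the same library.

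**Figure D3:**
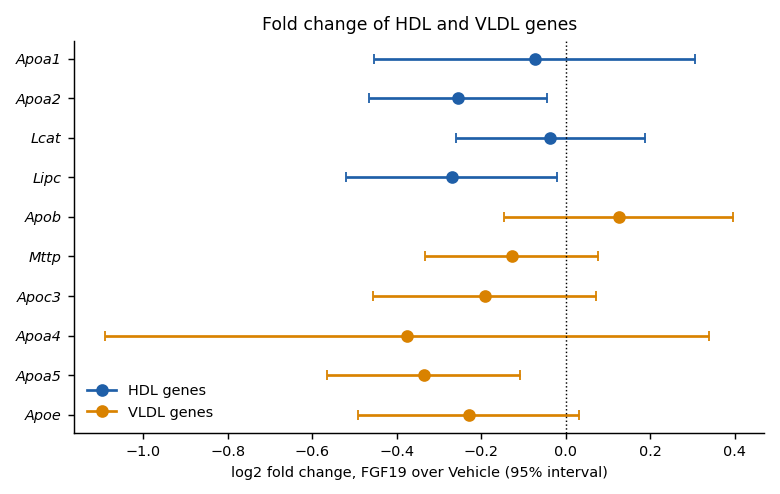
Log2 fold change, FGF19 over Vehicle, of the 4 HDL genes (blue) and 6 VLDL genes (orange), with points for the edgeR estimate and bars for its 95% interval. The intervals of Apoa2, Lipc and Apoa5 lie below 0 and the other 7 cross it, and the blue points, from -0.27 to -0.037, lie inside the span of the orange points, from -0.38 to 0.12.

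FGF19 replicates 2 and 3 lay at opposite ends of the FGF19 group in all 10 genes. Replicate 3 was the highest FGF19 library and replicate 2 the lowest in 7 genes, and the reverse held in the remaining 3, Apob, Mttp and Lipc. These libraries also differed beyond the 10 genes. Over all genes, the chi-square per degree of freedom of FGF19 replicate 3 was 29.7 against replicate 1 and 39.4 against replicate 2. It was 8.25 between FGF19 replicates 1 and 2, and from 15.7 to 28.1 between Vehicle libraries. Replicate 3 was the FGF19 library nearest to the Vehicle mean in 6 of 10 genes, against 2 each for replicates 1 and 2. When replicate 3 was left out, edgeR called 4 of the 10 genes lower (Apoa2, Apoa5, Apoc3 and Apoe), with adjusted p-values from 0.0350 to 0.0463 and log2 fold changes between -0.38 and -0.29. In that fit, 8% of all 12692 genes tested were called higher and 7.3% lower. Leaving out any other library, FGF19 replicate 2 included, called none of the 10. Those fits called between 91 and 202 genes lower over all genes and between 236 and 398 higher. With all 6 libraries, 357 were lower and 573 higher, so few calls among any 10 genes are likely in those fits.

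Ratios of 1 gene to another within a library do not depend on the scaling between libraries, and 5 of them were compared by two-sided exact permutation tests, for which 3 libraries against 3 cannot give a p below 0.1. The ratio of Apob to Mttp per length was 5.16, 5.19 and 5.11 in the Vehicle libraries and 6.38, 6.30 and 5.67 in the FGF19 libraries. It was higher in 3 of 3 FGF19 libraries, at 119% of the Vehicle mean (exact permutation test, p = 0.1, adjusted p = 0.25 over 5 ratios). The ratio of Apoa1 to Apob, the scaffolds of HDL and VLDL, was 29.7, 41.3 and 36.0 in the Vehicle libraries and 27.8, 23.0 and 45.5 in the FGF19 libraries. These values overlapped (exact permutation test, p = 0.6, adjusted p = 0.6). The ratio of Apoe to Apob was 44.1, 46.1 and 43.0 in the Vehicle libraries and 30.2, 29.6 and 47.0 in the FGF19 libraries (exact permutation test, p = 0.4, adjusted p = 0.6). FGF19 replicates 1 and 2 lay below every Vehicle library in this ratio and replicate 3 above. The ratio of Apoa1 to Apoa2 also overlapped (exact permutation test, p = 0.5, adjusted p = 0.6).

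Apoa1, Apoc3, Apoa4 and Apoa5 lie together on chromosome 9 of mm9, in a cluster of 43.3 kb from 46036713 to 46080002 whose genes are known to share enhancer elements. Apoa1 (46036713 to 46038549), Apoa4 (46048927 to 46051541) and Apoa5 (46076691 to 46080002) are on the plus strand and Apoc3 (46041134 to 46043380) is on the minus strand. Lipc lies elsewhere on chromosome 9, from 70645935 to 70782615 on the minus strand. The 4 log2 fold changes in the cluster ran from -0.38 to -0.074, and none was called. Zfp259, the nearest gene beyond Apoa5, had a log2 fold change of -0.39 (edgeR adjusted p = 0.179), and Bud13, the next, one of -0.12 (edgeR adjusted p = 0.679). On the other side, Sik3 was at -0.077, Pafah1b2 at 0.22 and Sidt2 at -0.065, each without a call. The step from cluster to neighbour was therefore not larger than the spread within the cluster.

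**Figure D4:**
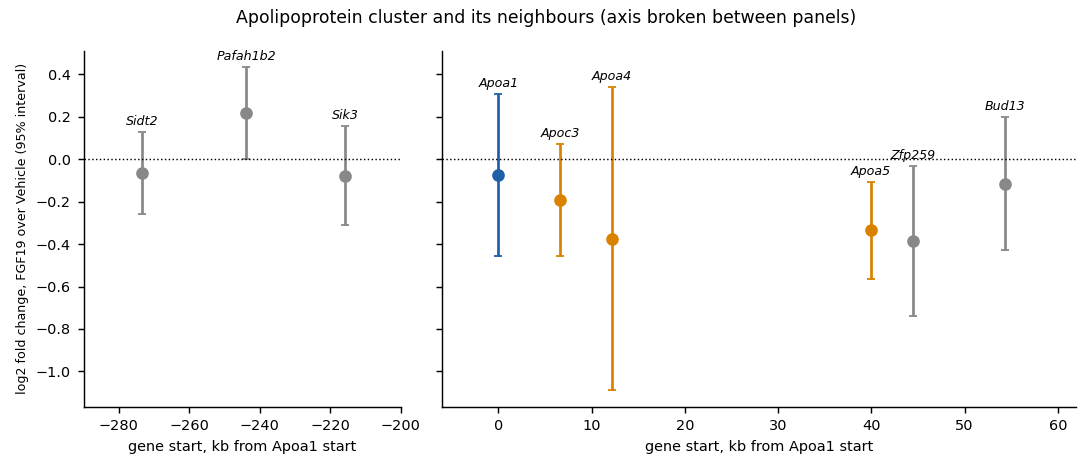
Log2 fold change, FGF19 over Vehicle, with its 95% interval, against the distance of the gene start from the start of Apoa1 in kb (axis broken between the panels), for Apoa1 (blue, HDL gene), Apoc3, Apoa4 and Apoa5 (orange, VLDL genes) and 5 neighbours (grey). The intervals of Apoa5 and Zfp259 lie below 0, that of Pafah1b2 lies above 0, none of these passed the adjusted threshold, and the others cross 0.

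Apoe lies on chromosome 7 from 20281593 to 20284515 on the minus strand, among further apolipoprotein genes. Apoc1, 3.59 kb away, stood at 3583, 3491 and 3480 CPM in the Vehicle libraries and at 2624, 2801 and 3205 CPM in the FGF19 libraries. As for Apoe, the groups did not overlap and FGF19 replicate 3 was the highest of the treated libraries, with a log2 fold change of -0.29 ± 0.10 (SE, n = 3 in each group) and an edgeR adjusted p of 0.126. Apoc4 was at -0.23, Apoc2 at 0.20, Clptm1 at -0.12, Tomm40 at -0.10 and Pvrl2 at -0.23 on the log2 fold change scale, none of them called. The remaining genes were Apoa2 on chromosome 1 (173155185 to 173156510, plus strand), Mttp on chromosome 3 (137752819 to 137806352, minus strand), Lcat on chromosome 8 (108463451 to 108467302, minus strand) and Apob on chromosome 12 (7984483 to 8023645, plus strand). No exon of the 10 genes shared positions with an exon of another listed gene.

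Apoa4, with the largest fold change in size, was also compared with every gene of at least 10 CPM on average for likeness of its pattern. Over the 6 libraries and 7542 genes, the highest Pearson correlations of log2 CPM were with Daglb (0.993), Hsd17b13 (0.974) and Hnrnpd (0.971). Hsd17b13 encodes a lipid droplet protein of hepatocytes and stood at 698, 769 and 856 CPM in the Vehicle libraries and at 719, 668 and 750 CPM in the FGF19 libraries. These are the extremes of a search over 6 points that share libraries and depth, and are given as a description.

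The wider set of lipoprotein genes did contain changes. Of 61 further genes in 5 lists, 59 were tested. By the same test and threshold, 9 were called higher and 2 lower, and 48 were not called. Over all genes, 4.56% were called higher and 2.84% lower. The lists were chosen with earlier results of these data known, so the counts describe them and are no test of them. Of the 9 called higher, 4 were serum amyloid A genes. With 1 library other than FGF19 replicate 3 left out, fewer genes were called over all genes. Those fits called between 91 and 202 lower and between 236 and 398 higher, where the full fit called 357 and 573. A call lost below in such a fit is therefore not particular to that gene. Apod was too low to be tested. Mia3 was listed at 0 in every library, as were all 60 genes that the annotation places only on unassembled pieces of chromosomes, Mia3 among them, so its 0 is not read as a level.

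Among 12 other apolipoproteins, 4 were called higher and none lower, and all 4 were serum amyloid A genes, which encode apolipoproteins of HDL, most of them acute-phase proteins. Saa1 stood at 16.9, 46.7 and 23.9 CPM in the Vehicle libraries and at 2836, 2833 and 3096 CPM in the FGF19 libraries, a log2 fold change of 6.65 ± 0.36 (SE, n = 3 in each group, edgeR adjusted p = 1.36e-05). Saa2 rose by 8.28 and Saa3 by 6.26 on the log2 scale. Saa4, the constitutive member of the family, stood at 216, 294 and 182 CPM in the Vehicle libraries and at 424, 406 and 535 CPM in the FGF19 libraries, a log2 fold change of 0.98 ± 0.18 (SE, n = 3 in each group, edgeR adjusted p = 0.0107). Per length, Saa1 and Saa2 together were 0.279%, 0.546% and 0.332% of the level of Apoa1 in the Vehicle libraries and 59.0%, 71.3% and 53.6% in the FGF19 libraries. The serum amyloid transcripts thus came to within a factor of 2 of the main HDL scaffold in each FGF19 library. Apoa1 itself overlapped between the groups. The ratio to Apoa1 was higher in every FGF19 library than in every Vehicle library. Its p was the smallest that 3 libraries against 3 can give (exact permutation test, p = 0.1, adjusted p = 0.25 over 5 ratios). Saa1 and Saa2 are near-identical and reads aligned to several places were not counted. Their levels and their sum may therefore be understated, and the division between them is uncertain. Of 5 neutrophil markers, 4 were in the count data. Only S100a9 was abundant enough to be tested, and it was called higher. The 4 summed to between 0.524 and 1.59 CPM in the Vehicle libraries and between 2.93 and 4.23 CPM in the FGF19 libraries, with Mpo at 0 in 5 of the 6 libraries, and their part in the serum amyloid levels was not tested. The most abundant of the uncalled genes were Apoc1, Apoh, Clu and Apof, at log2 fold changes of -0.29, -0.18, 0.22 and 0.057.

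Among 9 tested genes of VLDL assembly and secretion, 2 were called higher and none lower. P4hb, protein disulfide isomerase and the partner subunit of Mttp in the transfer complex, stood at 1443, 1334 and 1265 CPM in the Vehicle libraries and at 1888, 2014 and 1893 CPM in the FGF19 libraries. Its log2 fold change of 0.52 ± 0.09 (SE, n = 3 in each group, edgeR adjusted p = 0.0104) contrasts in sign with the -0.13 of Mttp, although the difference between the 2 genes was not tested. Surf4, a cargo receptor for lipoprotein export from the endoplasmic reticulum, stood at 240, 246 and 228 CPM in the Vehicle libraries and at 330, 322 and 332 CPM in the FGF19 libraries, a log2 fold change of 0.46 ± 0.08 (SE, n = 3 in each group, edgeR adjusted p = 0.00907). Both also serve many other secreted proteins. The adjusted p of P4hb rose to as much as 0.0714 without Vehicle replicate 3 or FGF19 replicate 2, and that of Surf4 to 0.0603 without Vehicle replicate 3. The uncalled Sar1b, Mia2, Pla2g12b and Cideb were at -0.14, -0.11, 0.28 and -0.19.

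Among 11 plasma enzymes, transfer proteins and inhibitors, 1 was called higher and none lower. Angptl8, a feeding-induced protein that takes part in the inhibition of lipoprotein lipase, stood at 12.3, 21.0 and 15.6 CPM in the Vehicle libraries and at 34.2, 23.8 and 38.1 CPM in the FGF19 libraries, a log2 fold change of 0.98 ± 0.21 (SE, n = 3 in each group, edgeR adjusted p = 0.0254). This call was lost without Vehicle replicate 1, Vehicle replicate 3 or FGF19 replicate 1, with an edgeR adjusted p of up to 0.105. The paraoxonases Pon1, Pon2 and Pon3, of which the products of Pon1 and Pon3 are carried on HDL, were not called at log2 fold changes of -0.21, -0.035 and -0.00062, nor was Angptl4, at 0.28.

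Among 11 receptors and lipid transporters, Vldlr was called lower and Abcg8 higher. Vldlr, the VLDL receptor, was low in these livers at 3.29, 3.92 and 4.07 CPM in the Vehicle libraries and 2.09, 1.79 and 1.77 CPM in the FGF19 libraries, a log2 fold change of -0.99 ± 0.19 (SE, n = 3 in each group, edgeR adjusted p = 0.0141). Its call was lost without Vehicle replicate 3 or FGF19 replicate 2 (edgeR adjusted p up to 0.0742). Abcg8, which with Abcg5 exports sterol into bile, stood at 91.2, 90.1 and 112 CPM in the Vehicle libraries and at 144, 140 and 128 CPM in the FGF19 libraries, a log2 fold change of 0.49 ± 0.11 (SE, n = 3 in each group, edgeR adjusted p = 0.0249). This call was lost in 4 of the 6 fits that left out a library, those without Vehicle replicate 1 or 2 or FGF19 replicate 1 or 2 (edgeR adjusted p up to 0.0968). The uncalled Lrp1, Scarb1, Sdc1 and Lsr were at 0.14, -0.33, 0.021 and 0.28. Scarb1, the HDL receptor, stood at 371, 290 and 284 CPM in the Vehicle libraries and at 258, 235 and 261 CPM in the FGF19 libraries, without overlap (edgeR adjusted p = 0.126).

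Among 16 regulators of these genes, Nr0b2 was called higher and Nr1h4 lower. Nr0b2 encodes SHP, an orphan receptor that represses transcription, and stood at 13.9, 21.8 and 30.9 CPM in the Vehicle libraries and at 64.5, 54.5 and 54.8 CPM in the FGF19 libraries, a log2 fold change of 1.38 ± 0.23 (SE, n = 3 in each group, edgeR adjusted p = 0.00823). Nr1h4 encodes the bile acid receptor FXR and stood at 163, 140 and 149 CPM in the Vehicle libraries and at 84.9, 93.1 and 117 CPM in the FGF19 libraries, a log2 fold change of -0.61 ± 0.12 (SE, n = 3 in each group, edgeR adjusted p = 0.0185). The call on Nr1h4 was lost in 4 of the 6 fits that left out a library, those without Vehicle replicate 1 or 3 or FGF19 replicate 1 or 2 (edgeR adjusted p up to 0.0864). Hnf4a, the nuclear receptor that activates most apolipoprotein genes, stood at 828, 891 and 798 CPM in the Vehicle libraries and at 596, 666 and 765 CPM in the FGF19 libraries. All FGF19 values lay below the Vehicle values, with FGF19 replicate 3 the nearest, and the log2 fold change of -0.31 ± 0.11 (SE, n = 3 in each group) did not pass the test (edgeR adjusted p = 0.120). The uncalled Creb3l3, Cebpa and Ppara were at 0.30, -0.26 and 0.13.

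**Figure D5:**
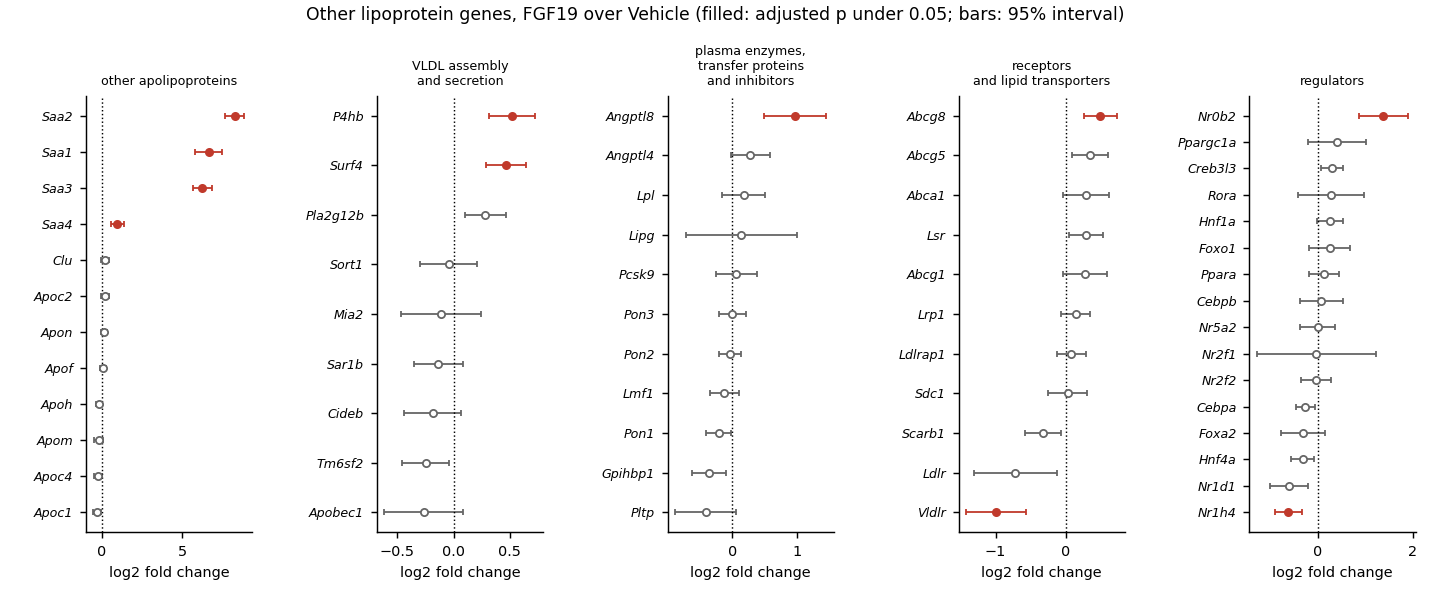
Log2 fold change, FGF19 over Vehicle (horizontal axes, which differ in scale between panels), with its 95% interval, of the 59 further lipoprotein genes tested, in 5 panels by role. Filled red points are the 11 genes at an adjusted p under 0.05, of which Saa1, Saa2 and Saa3 lie between 6.26 and 8.28 and the other 8 between -0.99 and 1.38.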

How the data were processed

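RNA-seq of whole liver was analysed for 3 Vehicle and 3 FGF19 libraries, grouped by the treatment and replicate number in the labels. The p-values weigh the difference between the groups against the spread between these samples. Per the submitters' processing notes, the authors used bcl2fastq 2.17.1.14, Trimmomatic 0.36, FastQC 0.11.5 and STAR 2.5.3a, while the study's methods and reporting summary name other STAR versions. The authors deposited raw counts per gene from featureCounts 1.5.2 on mm9 exons. Per the file headers, strand was not used, mates were counted separately and multi-mapped reads were dropped. The reads of a fragment are thus not independent, and near-identical genes such as Saa1 and Saa2 may be undercounted and misdivided. Mice rather than reads set the precision. A deposited table of the authors' own comparison, with fold changes and p-values, was not used.

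Counts were filtered with filterByExpr, scaled by TMM and tested by the quasi-likelihood test of edgeR 4.0.16 (R 4.3.3), with p-values adjusted over 12559 genes by the Benjamini-Hochberg method and calls at an adjusted p under 0.05. The common dispersion was 0.0163. The code was tested on simulated counts. No pair of libraries within a group agreed within sampling noise (chi-square per degree of freedom of 8.25 or more). Alternatives were DESeq2 1.42.0, limma-voom (limma 3.58.1), the likelihood ratio and exact tests of edgeR, no TMM scaling, no filter, at least 1 CPM in every library, a replicate block, each library left out and an unadjusted p under 0.01. Intervals are 95%.

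The 10 genes and the lists were chosen with earlier results of these data known. Named besides the 10 were the called genes of each list with up to 4 abundant uncalled ones, the 3 nearest genes on each side of the chromosome 9 cluster, those within 50 kb of Apoe, the 3 genes most like Apoa4, and Cyp7a1 as a check of the treatment. Of the marker lists, 1 of 6 hepatocyte genes was called (Fgb, higher), 1 of 6 Kupffer cell genes (Cd68, higher), and none of the 5 sinusoidal endothelium, 5 stellate cell and 5 cholangiocyte genes. In each of the adipocyte, neutrophil and enterocyte lists only 1 gene passed the filter: Fabp4 and S100a9, called higher, and Fabp2, not called. A further gene beyond Bud13, 4931429L15Rik, did not pass the filter. Angptl8 carries its older symbol Gm6484 in the count data. A gene of the lists is not reported here.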

Additional observations from a re-analysis of the deposited data

How the results depend on the processing

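The number of the 10 genes called higher was 0 in every alternative run. The number called lower was 0, and became 1 with DESeq2 and 1 at an unadjusted p under 0.01 (Apoa5 in both), and between 0 and 4 with each library left out, where 4 came without FGF19 replicate 3. Of the further lipoprotein genes, 9 were called higher, with between 6 and 13 when a library was left out, and 2 lower, with between 0 (without Vehicle replicate 3 or FGF19 replicate 2) and 8 (without FGF19 replicate 3), and 1 without FGF19 replicate 1. With each library left out, between 91 and 926 genes were called lower over all genes and between 236 and 1015 higher. The full fit called 357 and 573, and the most of both came without FGF19 replicate 3. The medians of the HDL genes (-0.23 to -0.099) and of the VLDL genes (-0.32 to -0.13) kept their sign over the alternatives. Their difference of 0.047 ranged from -0.00325 to 0.107 when a library was left out and was -0.10 with Apoe, Apoa4 and Apoc3 counted among the HDL genes. The sign turned for Apoa1 (range -0.24 to 0.068, positive without Vehicle replicate 2 or FGF19 replicate 2), Apoa4 (-0.65 to 0.057, positive without Vehicle replicate 3) and Lcat (-0.12 to 0.024, positive without FGF19 replicate 2). The cause was not tested. No scaling alternative turned a sign of the 10 genes. With a replicate block, 0 of the 10 genes and 8 higher and 2 lower of the further genes were called (the call on Abcg8 was lost, edgeR adjusted p = 0.0685), with 370 higher and 164 lower over all genes. Libraries with the same number did not deviate together (r = -0.031, -0.18 and -0.18, where other pairs ran from -0.13 to 0.23). These values show no pairing by number, but 3 libraries a group cannot exclude one. At 3 libraries a group, the 95% intervals of the 10 genes reach as low as -1.09 (Apoa4) and as high as 0.40 (Apob) on the log2 scale.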
